A study of Mus musculus with 15 samples.

Results

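The 8 RNAs described here were Malat1, Neat1, Dleu2, Gas5, Snhg1, Snhg5, Snhg8 and Snhg12, which are long transcripts that encode no protein. They were chosen by name from the 18804 genes of the count table, and all 8 had a row there and passed the filter on low counts. Their levels were followed in cultured white adipocytes of C57BL/6J mice. Mesenchymal stem cells, progenitors that can form fat cells, were isolated from mouse ears and were differentiated with methylisobutylxanthine, dexamethasone, insulin and troglitazone, the same for every group. All cells were harvested 16 days after differentiation began. Day 0 cells were kept at 37°C, day 1 cells went to 31°C on day 15 and day 12 cells on day 4, with 5 libraries in each group. The day 12 cells therefore spent most of their maturation at 31°C, so time at 31°C and the stage at which the cells were moved cannot be told apart. Whether libraries of 1 group stem from different mice or from dishes of 1 preparation is not known, so an SD or p-value covers the spread between libraries, which may be technical.

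Malat1 and Neat1 stay in the nucleus. Malat1 gathers in nuclear speckles, which hold splicing factors, and Neat1 is the scaffold of paraspeckles, bodies built on its long form by RNA-binding proteins. Gas5 and the Snhg RNAs are hosts of small nucleolar RNAs (snoRNAs): the introns give rise to snoRNAs, which guide methylation (box C/D) or pseudouridylation (box H/ACA) of other RNAs, while many of the spliced host RNAs are bound by ribosomes and are removed by nonsense-mediated decay. Dleu2 is the host of the microRNAs miR-15a and miR-16-1, which repress cyclins and other cell cycle genes.

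The RNAs that these hosts carry are shown first, since the hosts are known mainly for them. In the GENCODE annotation of GRCm38, 26 snoRNA entries lay inside the 5 snoRNA hosts, 10 in Gas5, 8 in Snhg1, 5 in Snhg12, 2 in Snhg5 and 1 in Snhg8. Snhg5 (chr9:88521050-88522929, minus strand) held 2 box C/D snoRNAs whose 72 bases differed at 1 position, C50A, counted from the 5′ end of Snord50a. They lay at chr9:88521529-88521600 and chr9:88521797-88521868, and capitals mark the box C letters TGATGA and the box D letters CTGA.
Snord50a: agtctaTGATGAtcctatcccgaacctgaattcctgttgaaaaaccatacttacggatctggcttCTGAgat
Snord50b: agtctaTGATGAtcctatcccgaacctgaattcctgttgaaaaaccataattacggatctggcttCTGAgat
Snord47, a box C/D snoRNA at chr1:161038082-161038158 in Gas5, and Snora24, an H/ACA snoRNA at chr3:123507937-123508066 in Snhg8, are examples from the other classes of host. In Snora24 the capitals mark the ACA near the 3′ end.
Snord47: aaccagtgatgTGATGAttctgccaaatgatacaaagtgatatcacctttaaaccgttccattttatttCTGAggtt
Snora24: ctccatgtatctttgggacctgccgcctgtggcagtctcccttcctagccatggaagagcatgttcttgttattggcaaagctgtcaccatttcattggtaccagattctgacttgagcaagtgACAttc
Dleu2 (chr14:61602839-61682373, minus strand) held 2 microRNA genes in an intron, and their mature RNAs share the seed, bases 2 to 8, shown in capitals. The mature sequences are from RefSeq, at chr14:61632075-61632096 and chr14:61631936-61631957 of GRCm38.p6.
mmu-miR-15a-5p: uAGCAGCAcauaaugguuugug
mmu-miR-16-5p: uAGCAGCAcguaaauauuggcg
These small RNAs themselves were hardly counted. Mir15a and Mir16-1 had at most 2 counts in any library, Snord47 at most 9, Snord22 in Snhg1 at most 27, and Snora16a and Snora44 in Snhg12 at most 21 and 11. The levels below are those of the host RNAs and say nothing of how much mature snoRNA or microRNA the cells held.

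The starts of the 5 snoRNA hosts are shown because host RNAs of this kind typically begin with a run of pyrimidines. RefSeq promoters of GRCm38.p6 were read from 50 bases before to 20 bases from the annotated start, on the transcribed strand. Capitals mark TATA, with a further TA where it follows or precedes, and the unbroken run of C or T at the start itself.
Gas5 (chr1:161035116-161035185, the later of 2 annotated starts): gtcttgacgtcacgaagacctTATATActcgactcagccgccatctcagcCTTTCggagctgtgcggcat
Snhg1 (chr19:8723437-8723506): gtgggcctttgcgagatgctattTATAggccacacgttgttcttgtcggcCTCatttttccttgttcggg
Snhg5 (chr9:88522878-88522947): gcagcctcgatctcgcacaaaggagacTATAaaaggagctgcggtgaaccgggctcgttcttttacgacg
Snhg8 (chr3:123508317-123508386): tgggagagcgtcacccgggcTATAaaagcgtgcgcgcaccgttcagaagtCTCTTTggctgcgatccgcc
Snhg12 (chr4:132308628-132308697): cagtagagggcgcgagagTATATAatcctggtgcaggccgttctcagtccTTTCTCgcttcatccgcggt
All 5 of these windows held TATA in the 50 bases before the start, on the transcribed strand, against 9.08% of 32851 annotated promoters. A run of at least 3 pyrimidines from the start was found in 4 of the 5, and in 10.7% of all promoters. The 50 bases before the starts of Malat1 and Dleu2 and before the first start of Gas5 did not hold TATA. Most other snoRNA hosts lacked these letters: of 12 others listed here with a promoter entry, 1 (Snhg7) held TATA and 3 had such a run, and Snhg3, a neighbour of Snhg12, had neither. Any link between these letters and the levels given below was not tested.

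Levels are given as CPM, counts scaled to a common library size with TMM factors. A gene was called when edgeR's quasi-likelihood test gave a Benjamini-Hochberg adjusted p under 0.05 and the fold change was over 1.5. Libraries held 64648178 to 133270973 counts, and a count of 0 allows up to 0.0238 to 0.0428 CPM for counting error alone. All 8 adipocyte markers were expressed, with a summed level of 4210 to 4830 CPM at day 0, 5170 to 5730 at day 1 and 4440 to 4990 at day 12, but they did not move together. The fatty acid carrier Fabp4 rose at both times (0.76 and 0.97), the lipid droplet gene Cidec (-2.62 and -1.59) and Lep (-0.65 and -0.69) fell at both, and Adipoq (-1.24) and Pparg (-0.59) were lower at day 12, where 1 of the 8 was higher and 4 lower. The cultures changed in other ways at day 12: all 8 proliferation markers were higher than at day 0 (summed level 184 to 223 CPM, against 57.4 to 70.2), the 4 chondrocyte markers summed to 1130 to 1220 CPM against 3670 to 4400 and the 6 mesothelial markers to 23.4 to 38.3 CPM against 2.06 to 2.25. Of these Msln made up 22 to 36.6 CPM at day 12 while Wt1 was at 0 counts there and Upk1b and Upk3b at 6 or fewer. Among the chondrocyte markers 3 of 4 were called lower at day 12, Comp (-2.02), Acan and Sox9. Col2a1, which was not called, was at 156 to 214 CPM there against 136 to 170 at day 0. In such bulk samples fewer cells of a type and less RNA per cell cannot be told apart, and the part of these shifts in the results was not tested. The 6 immune markers summed to 5.23 to 13 CPM over all libraries, mostly Cd68, the 4 endothelial markers to at most 1.47 CPM and the 4 keratinocyte markers to at most 0.167 CPM, while the 8 stromal progenitor markers summed to 1320 to 1590 CPM. That sum hides shifts at day 12, where 2 of the 6 tested stromal markers were called lower and 0 higher. Ly6a was at 211 to 237 CPM there against 556 to 624 at day 0, and Pdgfra at 702 to 720 against 543 to 598. The library numbers in the labels fall into 2 series of 11 and 4 libraries, and the same RNAs of the 8 were called within each of them as in all 15, except that Snhg8 was also called at day 12 (0.75) in the smaller one. That one held 1, 2 and 1 libraries at day 0, day 1 and day 12, so its lone libraries were taken to vary like the pair.

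At day 1, Dleu2 and Neat1 had fallen and Snhg5 had risen, and the other 5 RNAs were not called. These 3 of 8 compare with 21.1% of the 14293 genes tested. At day 12, Dleu2, Snhg12, Malat1 and Neat1 were lower than at day 0, which made 4 of 8 called, each of them lower, against 29.2% of all genes called and 16.2% called lower. The day 1 and day 12 comparisons share the day 0 libraries. The 2 times at 31°C also differed directly: Malat1, Snhg5 and Snhg12 were lower at day 12 than at day 1, 3 of 8 against 19.1% of all genes called and 8.53% called lower. By adjusted p alone, 5, 7 and 6 of the 8 passed at day 1, at day 12 and between the 2, beside 71.5%, 76.6% and 67.2% of all genes. The CPM values of the groups did not overlap for 4, 7 and 5 of the 8, beside 57.4%, 64.6% and 52.5% of all genes, so that neither count set these RNAs apart from other genes. The median log2 fold change of the 8 RNAs was -0.05 at day 1 and -0.60 at day 12, beside -0.01 and 0.01 over all genes tested.

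**Figure D1:**
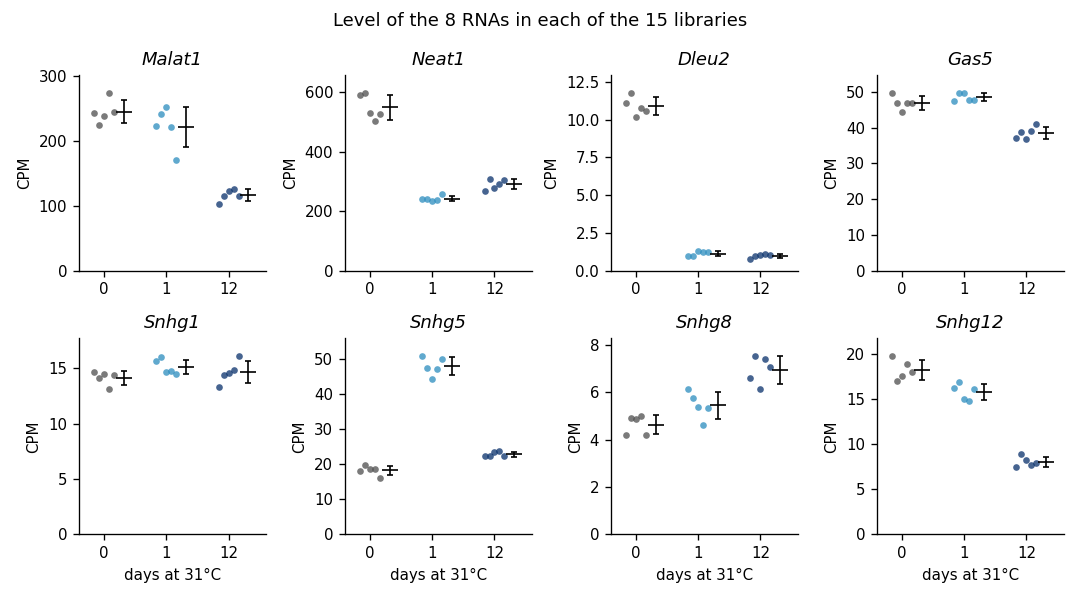
Level of each of the 8 RNAs (vertical axis, CPM, from 0) in the 15 libraries, against days at 31°C. Points are libraries, and the black mark and bar beside them are the mean and SD of the 5 libraries. Dleu2 sits at 10.2 to 11.8 CPM at day 0 and under 1.3 CPM in every library at 31°C, while Snhg5 peaks at day 1.

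Dleu2 changed most of the 8. It had 11.1, 11.8, 10.2, 10.8 and 10.6 CPM in the day 0 libraries, 0.96, 0.986, 1.28, 1.21 and 1.22 CPM at day 1, and 0.741, 0.946, 1.01, 1.1 and 1.03 CPM at day 12. Every library at 31°C was below every day 0 library, and the day 1 and day 12 libraries overlapped. The fitted level was 9.54-fold lower at day 1, with a log2 fold change of -3.25 ± 0.0982 (SE, n = 5 per group, edgeR adjusted p = 9.4e-19). It was 11.3-fold lower at day 12 than at day 0, with a log2 fold change of -3.50 ± 0.1 (edgeR adjusted p = 1.19e-19). Between day 1 and day 12 it differed by -0.25 ± 0.118 on the log2 scale (edgeR adjusted p = 0.0673), so that the low level reached after 1 day was not distinguished from that after 12 days. Other genes cover 6.07% of its exon bases, and the strand setting of the counting was not given.

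The genes around Dleu2 with enough counts for a test were not called lower. Trim13, a ubiquitin ligase gene on the opposite strand that overlaps its span, was not called at day 1 (0.21) or day 12 (0.47, log2 fold change), though it was called higher at day 12 with total counts (0.67) or reference genes (0.69) as the scale. Kcnrg, which regulates potassium channels and lies on the opposite strand inside the Dleu2 span, was called higher at both times, but at very low counts, with 0 to 5 counts in the day 0 libraries, 5 to 15 at day 1 and 14 to 31 at day 12. No Kcnrg or Trim13 exon base is shared with another annotated gene.

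The 13 listed targets of miR-15 and miR-16 did not move one way. They are cell cycle and growth factor genes, and all 13 held the letters TGCTGCT, the complement of the shared seed, in their 3′ UTR, against 22.2% of 21153 genes with an annotated 3′ UTR of any length. They were listed as targets from earlier knowledge, so the sites are a description and not a result. The genes called lower at day 1 or day 12, Cdk6, Ccnd2 and Ccnd3, held such sites as well. As examples, sites of the 3 genes called higher at day 12 are shown in windows of 30 bases. Capitals mark the seed match (GRCm38, minus strand, chr7:38098016-38098045, chr9:36710283-36710312 and chr7:144930387-144930416).
Ccne1: ctcttattttgtaagTGCTGCTatgtctat
Chek1: tcctggtgaatagagTGCTGCTatgtgaca
Ccnd1: ttgtgcatgccaccaTGCTGCTggcccggg
At day 1, 1 of the 13 was higher and 3 were lower, 30.8% against 21.1% of all genes. Wee1, a kinase that holds back mitosis, rose by 0.68 on the log2 scale, while Cdk6 (-1.02), Ccnd2 (-0.85) and Ccnd3 (-0.61), all of the G1 phase, fell. At day 12, 3 were higher, namely the checkpoint kinase Chek1 (1.07) and the cyclins Ccne1 (0.70) and Ccnd1 (0.68), and Ccnd3 alone was lower (-0.60, no longer called when libraries were scaled by total counts or by reference genes). Ccnd1 shares 23.4% of its exon bases with a gene on the other strand. The calls at day 12 again made up 30.8% of the list, near the 29.2% of all genes. The median log2 fold change of the 13 was -0.09 at day 1 and 0.15 at day 12. Chek1, Ccne1 and Ccnd1 rose at day 12 beside the proliferation markers, and the part of either in the other was not tested.

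Neat1 fell within 1 day and stayed low. Its level was 590, 598, 528, 503 and 526 CPM in the day 0 libraries, 240, 240, 233, 238 and 258 CPM at day 1, and 269, 309, 279, 290 and 306 CPM at day 12. No 2 groups overlapped: day 0 was highest, day 1 lowest and day 12 a little above day 1. The log2 fold change against day 0 was -1.18 ± 0.0453 at day 1 (2.27-fold lower, edgeR adjusted p = 7.59e-17) and -0.92 ± 0.045 at day 12 (1.89-fold lower, edgeR adjusted p = 3.51e-15). From day 1 to day 12 it differed by 0.26 ± 0.0449 (edgeR adjusted p = 1.46e-05), which is 1.20-fold and under the limit for a call.

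Malat1, which begins 22036 bases beyond the end of Neat1 on the same strand, fell later. It had 244, 225, 239, 275 and 245 CPM at day 0, 223, 242, 252, 222 and 171 CPM at day 1, and 103, 115, 123, 126 and 116 CPM at day 12. The day 0 and day 1 libraries overlapped, and all day 12 libraries were below both. The log2 fold change was -0.14 ± 0.0711 at day 1 (edgeR adjusted p = 0.0717) and -1.08 ± 0.0723 at day 12 (2.11-fold lower, edgeR adjusted p = 1.57e-12). Against day 1, day 12 was lower by -0.93 ± 0.0723 (edgeR adjusted p = 4.65e-11). Without day 1 replicate 5, the lowest library of its group, the day 1 value was -0.06, and it was -0.04 within the larger library series.

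The order of the 2 falls was seen in the ratio of Neat1 to Malat1 counts, which does not depend on how libraries are scaled. The day 0 libraries had 2.42, 2.66, 2.21, 1.83 and 2.15 Neat1 counts per Malat1 count, the day 1 libraries 1.08, 0.993, 0.925, 1.07 and 1.5, and the day 12 libraries 2.6, 2.69, 2.27, 2.31 and 2.64. Day 1 lay below day 0 and day 12 in every library, while day 0 and day 12 overlapped. On the log2 scale the ratio fell by 1.03 from day 0 to day 1 and was 1.19 higher at day 12 than at day 1, each with an exact two-sided permutation p = 0.00794, the smallest that 5 against 5 allows (adjusted over the 3 comparisons, 0.0119). Day 12 and day 0 differed by 0.159 (exact permutation p = 0.167). Within the larger library series the 3 differences were -1.18, 1.31 and 0.124, where so few libraries cannot reach an adjusted p under 0.05. The smaller series held the ratios 2.15 at day 0, 1.07 and 1.5 at day 1 and 2.64 at day 12. These are ratios of reads and not of molecules, since Neat1 has forms of 3004 and 20771 bases and which of them was counted was not given.

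**Figure D2:**
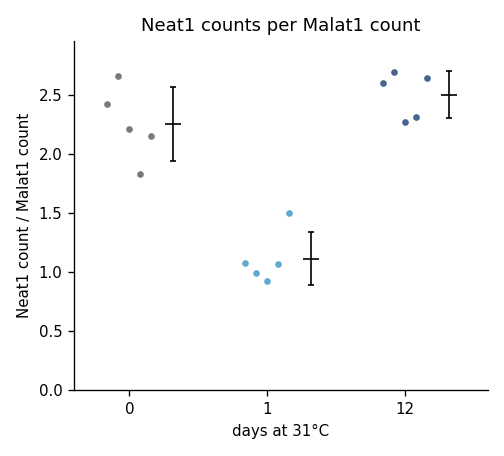
Neat1 counts per Malat1 count (vertical axis, a ratio, from 0) in each library against days at 31°C. Points are libraries, and the black mark and bar are the mean and SD of 5. The ratio is 0.925 to 1.5 at day 1, below the 1.83 to 2.66 of day 0 and the 2.27 to 2.69 of day 12.

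Genes for proteins of the bodies that these RNAs belong to moved more often up than down at day 1. The values of this list and of those below are RNA levels, and protein was not measured in these libraries. Of 17 genes for paraspeckle proteins, 5 were higher and 1 was lower at day 1, where 7.71% of all genes were higher and 13.4% lower. Among them, the RNA-binding proteins Ewsr1 (log2 fold change 1.01) and Rbm12 (0.89, with 33.1% of its exon bases in another gene) rose, and Hnrnph3 fell (-1.35). At day 12, 2 were higher and 2 lower: Sfpq (1.00), one of the proteins that paraspeckles cannot form without, and Ewsr1 (0.74) rose, and Hnrnph3 (-2.12) and Taf15 (-0.88) fell. Hnrnph3 went from 27.6 to 32.5 CPM at day 0 to 10.6 to 12.5 at day 1 and 6.36 to 7.63 at day 12. In all, 35.3% of the list was called at day 1 and 23.5% at day 12, beside 21.1% and 29.2% of all genes. The list's median log2 fold change was 0.25 at day 1 and 0.48 at day 12.

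Of 17 genes for nuclear speckle proteins, 2 were higher at day 1 and 3 at day 12, and 0 were lower at either time by the rule for a call. Srsf2 (1.13 and 1.07, with 25.3% of its exon bases in other genes) and Srsf3 (0.67 and 0.81) rose at both times and Srsf6 (0.65) at day 12, all splicing factors of the SR family. These are 11.8% and 17.6% of the list, lower shares than the 21.1% and 29.2% of all genes. The list's median was 0.09 at day 1 and 0.16 at day 12.

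Among the snoRNA hosts, Snhg5 responded to the first day at 31°C. It had 18.1, 19.7, 18.6, 18.6 and 16.1 CPM at day 0, 50.7, 47.4, 44.3, 47 and 49.9 CPM at day 1, and 22.4, 22.2, 23.4, 23.8 and 22.4 CPM at day 12. The day 1 libraries were all above the others, and the day 12 libraries all lay between day 0 and day 1. It was 2.63-fold higher at day 1, a log2 fold change of 1.39 ± 0.0461 (edgeR adjusted p = 4.72e-18). At day 12 it was 0.33 ± 0.0469 above day 0 (edgeR adjusted p = 9.83e-07), under the fold limit, and -1.07 ± 0.0457 against day 1 (2.1-fold lower, edgeR adjusted p = 6.38e-16). With total counts or reference genes as the scale its day 12 value was 0.52 or 0.54, still under the limit.

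Snhg12 (chr4:132308623-132311024, plus strand), the host of Snora16a, Snora44, Snora61 and Snord99, moved late and down. Its level was 19.8, 17.1, 17.6, 18.9 and 18 CPM at day 0, 16.3, 16.9, 15, 14.8 and 16.2 CPM at day 1, and 7.43, 8.94, 8.27, 7.7 and 7.94 CPM at day 12. The 3 groups did not overlap, with a small step at day 1 and a large one at day 12. The log2 fold change was -0.21 ± 0.0539 at day 1 (edgeR adjusted p = 0.00138, under the fold limit) and -1.18 ± 0.0564 at day 12 (2.27-fold lower, edgeR adjusted p = 2.08e-15). Day 12 against day 1 gave -0.97 ± 0.0571 (1.96-fold lower, edgeR adjusted p = 2.48e-13).

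Snhg3, another snoRNA host 36990 bases from Snhg12 on the other strand, moved the opposite way. It had 1.79 to 2.38 CPM at day 0, 5.93 to 6.48 at day 1 and 11.5 to 13.7 at day 12, with no overlap between groups. Its log2 fold change was 1.51 ± 0.0769 at day 1 and 2.51 ± 0.0753 at day 12 (edgeR adjusted p = 2.6e-19), and 1.00 ± 0.069 between the 2. Of its exon bases, 83.3% lie in other genes, among them Rcc1 on the same strand, so its counts are uncertain. Rcc1, which loads Ran on chromatin, was called higher at day 12 too (1.23). Trnau1ap, a selenocysteine tRNA factor 739 bases from Snhg12, rose at day 1 only by the rule for a call (0.84), fell between day 1 and day 12 (-0.63, not called when libraries were scaled by total counts or reference genes), and was 0.21 above day 0 at day 12.

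**Figure D3:**
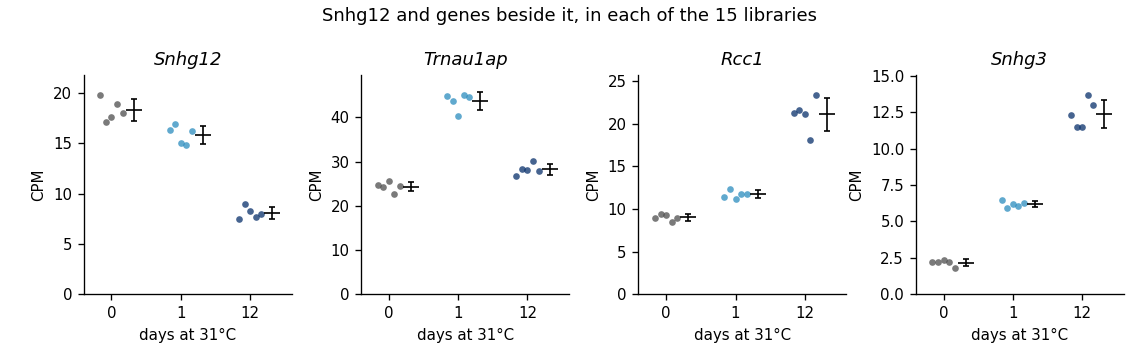
Level of Snhg12 and of 3 genes within 50 kb of it (vertical axis, CPM, from 0) in each library against days at 31°C. Points are libraries, and the black mark and bar are the mean and SD of 5. Snhg12 falls to 7.43 to 8.94 CPM at day 12, where Snhg3 reaches 11.5 to 13.7 CPM.

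Gas5, which besides its snoRNAs is known as a decoy of the glucocorticoid receptor, changed little. It had 49.8, 46.9, 44.4, 46.9 and 46.8 CPM at day 0, 47.4, 49.7, 49.7, 47.8 and 47.8 CPM at day 1, and 37.1, 38.8, 36.7, 39 and 41.1 CPM at day 12. The day 12 libraries were below all others, and day 0 and day 1 overlapped. The log2 fold change was 0.05 ± 0.0352 at day 1 (edgeR adjusted p = 0.244), and -0.28 ± 0.0354 at day 12 (edgeR adjusted p = 1.03e-07), under the fold limit. With reference genes as the scale the day 12 value was -0.07 (adjusted p = 0.133), and with total counts -0.09 (adjusted p = 0.0237), so the size of this difference depended on the scale.

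The 11 genes listed as the glucocorticoid receptor and its targets were mixed. All groups had dexamethasone, a glucocorticoid, only in the first days of differentiation, before any move to 31°C. The receptor Nr3c1 was not called at either time (0.03 and -0.04). At day 1, Dusp1 (0.94), a MAP kinase phosphatase, and Sgk1 (0.63, though 0.58 when genes averaging at least 10 CPM were tested), a kinase, rose and Errfi1 (-0.62) fell. At day 12, Sgk1 (1.09) and Dusp1 (0.71) were higher, and Tsc22d3 (-1.10), known as GILZ, and the metallothionein Mt2 (-0.98, with 73.5% of its exon bases in another gene) were lower. The share called was 27.3% at day 1 and 36.4% at day 12, beside 21.1% and 29.2% of all genes. Between day 1 and day 12, 2 were higher and 4 lower, 54.5% of the list against 19.1% of all genes, with Errfi1 (0.83) and Fkbp5 (0.67) higher and Mt2 (-0.93) and Tsc22d3 (-0.65) among the lower. The call of Tsc22d3 there was lost with total counts or reference genes as the scale. Per1 (52.4 to 62.4 CPM at day 1, 35.8 to 39.1 at day 12) and Zbtb16 (14.8 to 19.2 and 10.7 to 11.6) were lower there too. Those scales put the median of all genes between the times at 0.18 or 0.23, so calls near the limit depended on the scale.

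Snhg8, the host of Snora24, had the lowest level of these 5 snoRNA hosts at day 0, in CPM and per kilobase of the RefSeq transcript. It had 4.2, 4.92, 4.87, 5 and 4.2 CPM at day 0, 6.16, 5.75, 5.38, 4.63 and 5.34 CPM at day 1, and 6.61, 7.53, 6.13, 7.4 and 7.08 CPM at day 12. The day 12 libraries were above all day 0 libraries, and day 1 overlapped both. The log2 fold change was 0.24 ± 0.0835 at day 1 (edgeR adjusted p = 0.015) and 0.58 ± 0.0824 at day 12 (edgeR adjusted p = 7.33e-07), the latter just under the limit of 0.585. It passed that limit with total counts (0.78) or reference genes (0.80) as the scale, with library series as a covariate (0.587) and with no filter on low counts (0.588), and its call changed when single libraries were left out. Without day 0 replicate 2, 3 or 4, day 1 replicate 4, or day 12 replicate 1 or 3, the value was 0.61, 0.60, 0.61, 0.585, 0.60 or 0.63.

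Snhg1, which begins 106 bases from Slc3a2 on the other strand, was not called in any comparison. Its level was 14.7, 14.1, 14.5, 13.1 and 14.4 CPM at day 0, 15.7, 16, 14.7, 14.8 and 14.5 CPM at day 1, and 13.3, 14.4, 14.6, 14.9 and 16.1 CPM at day 12. All 3 groups overlapped. The log2 fold changes were 0.10 ± 0.0509 at day 1 (edgeR adjusted p = 0.0973) and 0.05 ± 0.0509 at day 12 (edgeR adjusted p = 0.372). Between day 1 and day 12 the value was -0.04 ± 0.0512, and its sign turned with the scale. Snord22, a snoRNA inside Snhg1, was called at day 12 (0.89) from 13 to 27 counts per library, and that call was lost under DESeq2 and in 10 of the 15 fits that left out a library.

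**Figure D4:**
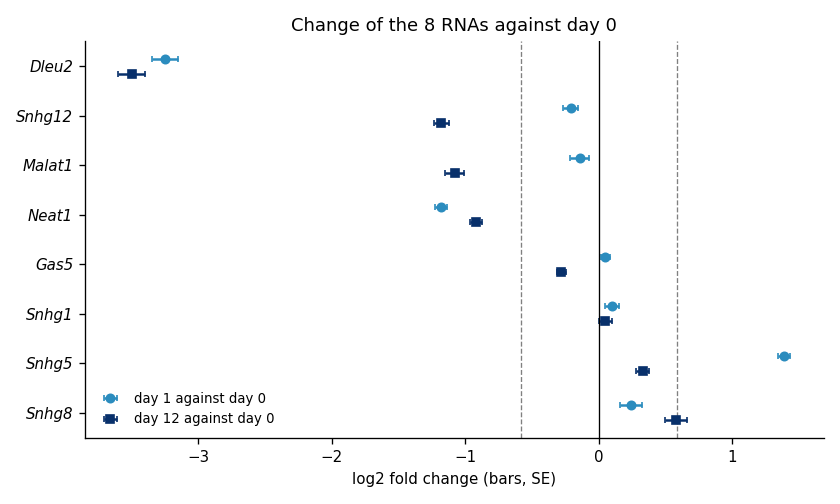
Log2 fold change of the 8 RNAs against day 0 (horizontal axis), with day 1 as circles and day 12 as squares. Bars are SE, and dashed lines mark the 1.5-fold limit of a call. Dleu2 is near -3.25 and -3.50, Neat1 is beyond the limit at both times, Malat1 and Snhg12 at day 12 only, and Snhg5 at day 1 only.

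Among the 15 other snoRNA hosts with a row, the log2 fold change was above 0 for 13 at day 1 and for 12 at day 12, beside 49.1% and 51.1% of all genes. Of all 20 hosts, 7 were higher and 0 lower at day 1 by the rule for a call, of which Snhg5 was the only one among the 8 RNAs, while 7.71% of all genes were higher and 13.4% lower. At day 12, 7 hosts were called, and the 2 lower ones were Snhg12 and Snhg11 (-0.81), while 13% of all genes were higher and 16.2% lower. Besides Snhg3, those higher at day 1 were Snhg9 (2.06), Snhg10 (1.03), Snhg17 (0.78, listed as 9430008C03Rik), Snhg6 (0.70, with 11.1% of its exon bases in another gene) and Snhg15 (0.63, listed as Gm11974, and 0.57 without day 0 replicate 3). At day 12 they were Snhg9 (2.03), Snhg4 (1.81), Snhg10 (1.18) and Dancr (0.70, listed as 2700023E23Rik, 0.58 without day 0 replicate 5 and 0.57 within the larger library series). Snhg9 had only 2 to 28 counts per library. Within the smaller library series Snhg9, Snhg10 and Snhg15 were not called at day 1 (1.32, 1.02 and 0.55). The median of the 15 was 0.48 at day 1 and 0.36 at day 12.

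**Figure D5:**
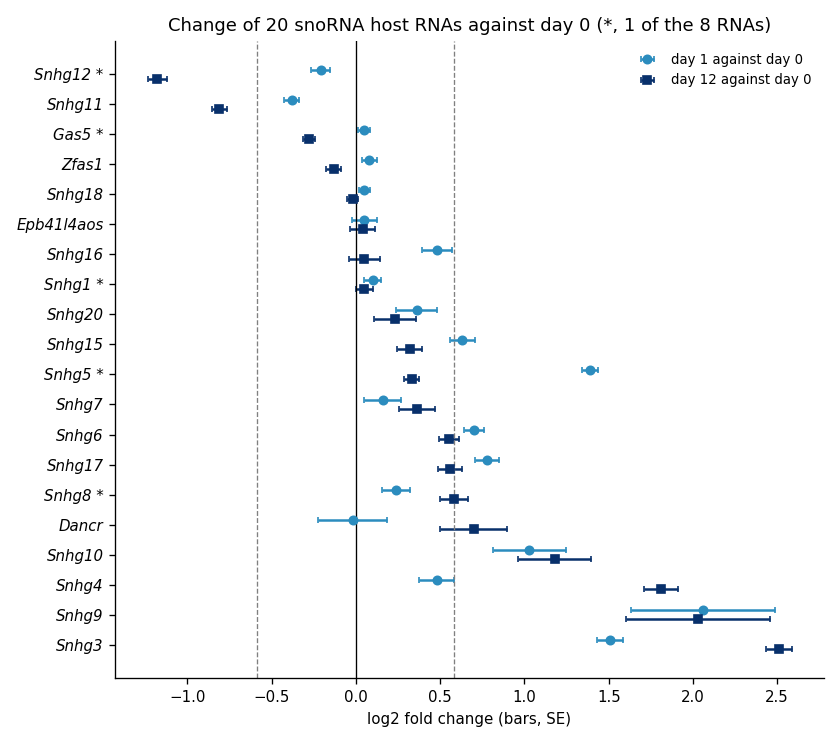
Log2 fold change against day 0 (horizontal axis) of 20 snoRNA host RNAs, ordered by their value at day 12, with day 1 as circles and day 12 as squares. Bars are SE, dashed lines mark the 1.5-fold limit, and an asterisk marks the 5 hosts among the 8 RNAs. Snhg12 is lowest and Snhg3 highest at day 12, and Snhg5 is the host whose day 1 value exceeds its day 12 value most.

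Genes for the proteins that bind snoRNAs were called higher or not at all. Of 19 core and assembly factors, 3 were higher at day 1 and 7 at day 12, with 0 lower. Nhp2, a core protein of H/ACA particles, rose at both times (1.02 and 1.16), and so did Nop56, a core protein of C/D particles (0.60 and 0.96, though 0.57 at day 1 without day 0 replicate 4 and 0.56 when genes averaging at least 10 CPM were tested). Nop58, its partner, was higher at day 12 (0.87), as was Gar1 (0.73). Dkc1, the pseudouridine synthase, rose by 1.00 between day 1 and day 12. The list's median was 0.20 at day 1 and 0.25 at day 12. At day 1, 15.8% of it was called, beside 21.1% of all genes, and at day 12, 36.8% beside 29.2%.

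Nonsense-mediated decay is the route by which many host RNAs are removed. Of 17 factors, 2 were called higher and 0 lower at each time, Eif4a3 (0.71 and 0.65) and Magoh (0.65 and 0.65), both of the exon junction complex. That is 11.8% of the list, below the share of all genes at either time. Upf1 was lower at both times without a call (-0.38 and -0.58), at day 12 by 1.49-fold, just under the limit. Of the 17, 9 were above 0 at day 1 and 11 at day 12. The list's median was 0.01 at day 1 and 0.20 at day 12.

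Of 12 tested long noncoding RNAs that are no snoRNA hosts, 3 were called at day 1 and 2 at day 12, which is 25% and 16.7% of them against 21.1% and 29.2% of all genes. Mir22hg, the host of miR-22 (listed as 2210403K04Rik, with 10.7% of its exon bases in another gene), had 41.9 to 47 CPM at day 0, 174 to 187 at day 1 and 66.7 to 76 at day 12 (2.03 and 0.68 against day 0). Like Snhg5 it was lower at day 12 than at day 1 (-1.34). Mir99ahg (listed as 2810055G20Rik) fell at both times (-1.22 and -1.66), and Dnm3os fell at day 1 (-0.69). Pvt1 was lower at day 12 than at day 1 (-0.98). The median of the 12 was -0.09 at day 1 and -0.34 at day 12.

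Per length, the order of the levels was another one than in CPM. Per kilobase of the RefSeq transcript, day 0 means were 35.2 ± 2.62 CPM (SD, n = 5) for Malat1, 30.2 ± 1.77 for Snhg12, 23.4 ± 1.04 for Snhg1, 18.4 ± 0.749 for Gas5, 18.1 ± 1.32 for Snhg5, 7.59 ± 0.418 for Dleu2 and 5.98 ± 0.519 for Snhg8. Malat1 overlapped Snhg12, and Gas5 overlapped Snhg5, while the other neighbours in this order did not overlap. The order rests on the length used. Per kilobase of all annotated exon bases, Malat1 was again at 35.2, followed by Gas5 (12.5 ± 0.509), Snhg5 (10.5 ± 0.764), Snhg12 (7.61 ± 0.448), Snhg8 (5.44 ± 0.472), Snhg1 (4.77 ± 0.212) and Dleu2 (0.962 ± 0.0529), where Snhg8 and Snhg1 overlapped. Neat1 was at 26.4 ± 2.04 CPM per kilobase with its long form and 183 ± 14.1 with its short form, so its place depends on which form was present. Per kilobase of the RefSeq transcript at day 12, Snhg1 (24.2 ± 1.66) and Snhg5 (22.7 ± 0.71) were highest of the 7 apart from Neat1, and Dleu2 was at 0.672 ± 0.0953.

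Genes whose profile over the 15 libraries was most like that of each RNA were found by the root mean square difference of centred log2 CPM, among 12131 genes of at least 1 CPM. For Dleu2 they were Lrrc51 (difference 0.291, log2 fold changes -2.79 and -3.09) and Gbp10 (0.352). For Neat1 they were Zcwpw1 (0.0867, -1.24 and -0.97) and Fggy (0.0882), and for Malat1 Eda2r (0.125, -0.09 and -1.07) and Trp53inp1 (0.125). For Snhg5 they were Gsta4 (0.117, 1.29 and 0.21) and Hnrpdl (0.123). For Snhg12 they were the matrix genes Lum (0.0848, -0.14 and -1.13) and Ecm1 (0.0852), for Snhg8 Pcbp4 (0.101) and Thoc5 (0.107), for Gas5 Ostf1 (0.0357) and Ghitm (0.0409), and for Snhg1 Ppp1r7 (0.0631) and Rg9mtd1 (0.0653). Dleu2 stood furthest from its nearest genes, which is a description of these profiles and carries no test.

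Within 50 kb of one of the 8 RNAs lie 31 tested genes that are not among them. At day 1, 6 of these were called, 5 of them higher, and 9 were called at day 12, 7 of them higher. In total this is near the 21.1% and 29.2% of all genes called. Over all genes, 7.71% and 13% were higher and 13.4% and 16.2% lower, so calls near these RNAs were more often higher. Besides those already named, Syncrip, an RNA-binding protein gene 38476 bases from Snhg5, rose at day 12 (0.86). Beside Snhg8, Prss12 rose at day 1 (0.62, and 0.584, under the limit, within the larger library series) and Ndst3 at day 12 (1.40). Near Snhg1, Wdr74 (0.60, and 0.583 within the larger library series) was higher and Tmem179b (-0.78, not called with total counts or reference genes as the scale) lower at day 12. Near Gas5, Zbtb37 was lower at day 1 (-0.60), with -0.49 without day 1 replicate 5, -0.58 without day 0 replicate 2, with total counts or with library series as a covariate, and -0.53 within the larger series. Cenpl was called higher at day 12 (0.59), a call lost without any of 4 single libraries, under DESeq2 (0.58) and within the larger series (0.52). Near Snhg12, Rab42-ps was lower at day 12 (-0.84) and Gmeb1 higher at day 12 than at day 1 (0.81), and Tigd3 near Neat1 was called at day 1 (0.77), a call lost without any of 7 single libraries.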

How the data were processed

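Per the labels, the authors aligned reads to mm10 with TopHat2 2.0.13 and Bowtie2 2.2.1 and counted them per gene with HTSeq. The deposited counts of 15 libraries were used as they are. The authors' regularized log2 values and DESeq2 tables of fold changes and p-values were not used. Strand setting, RNA selection and annotation version are not given in the sources used here. Genes were kept by filterByExpr (minimum count 10, 14293 of 18804), scaled by TMM (0.9459 to 1.094) and tested with edgeR 4.0.16 (R 4.3.3), quasi-likelihood, all 3 groups in 1 fit without covariates. The common coefficient of variation between libraries, 1 value for all genes, was 5.25%. On simulated day 1 data with 200 changed genes and that 1 spread for every gene, 190 were recovered, with 0 false calls (14190 genes). Real genes differ in spread, so false calls among genes of wider spread were not covered. DESeq2 1.42.0, other scalings (total counts, DESeq2 size factors, or the reference genes Hprt, Tbp, Gapdh and Ppia) and filters, and left-out libraries were alternatives. The Neat1 to Malat1 ratio was tested by exact permutation of log2 ratios (scipy 1.17.1). The RNAs, lists, alternatives and naming rule were chosen with earlier results of these data known. Named were the 8 RNAs, tested genes within 50 kb, the 2 nearest profiles of each, up to 5 called genes per list, and small RNAs inside them; 1 gene that the rule names is not reported here. Outside that rule, Snhg6, Snhg15, Snhg17, Dancr, Gar1, Taf15, Fkbp5, Nr3c1, Per1, Zbtb16, Ccnd3, Wee1, Upf1 and markers of other cell types were named after their values were seen. The 8 lists held 121 genes with a row. Older row names were matched by RefSeq synonyms. Coordinates are GENCODE M21 (GRCm38, the same as mm10). Replicate numbers did not pair libraries: same-number deviations correlated by -0.0495 to 0.0886. No 2 libraries were duplicates.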

Additional observations from a re-analysis of the deposited data

Results flagged for a closer look

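The effect of 31°C differed between the 2 times for 3 of the 8 RNAs, by the direct test of day 12 against day 1 in the edgeR fit. The log2 difference was -0.93 for Malat1, -1.07 for Snhg5 and -0.97 for Snhg12, and all 3 were called. For Malat1 and Snhg12 the change against day 0 was called at day 12 alone, and for Snhg5 at day 1 alone. The Neat1 to Malat1 log2 ratio also differed between the times, by 1.19 (exact permutation, adjusted p = 0.0119), with every day 12 library above every day 1 library.

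Day 1 replicate 5 stood apart from the other 4 libraries of its group in 2 of 27 sets of 5 values examined by Dixon's criterion, where chance alone gives about 1 in 20. Its Neat1 level was 258 CPM against 233 to 240 CPM, and its Neat1 to Malat1 ratio was 1.5 against 0.925 to 1.08. The 2 values share the Neat1 count. Without it, no call among the 8 RNAs at day 1 or between day 1 and day 12 changed.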

How the results depend on the processing

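Under the alternatives run, 1 value of the 8 RNAs turned sign, that of Snhg1 at day 12 against day 1, to 0.128 with total counts, 0.174 with reference genes and 0.127 within the smaller library series. The 3, 4 and 3 of the 8 RNAs called at day 1, at day 12 and between them became 5, 7 and 6 with no fold limit, and leaving out a library gave 3 to 3, 4 to 5 and 3 to 3. The numbers of all genes called, 3020, 4172 and 2729, became 1164, 1688 and 898 when only genes averaging 10 CPM were tested and 10226, 10950 and 9598 with no fold limit. Leaving out a library gave 2980 to 3055, 4139 to 4221 and 2697 to 2752. The 29, 32 and 19 list genes called became 19 at day 1 and 12 between the times with at least 10 CPM, 92, 99 and 87 with no fold limit, and 49 at day 12 with total counts or reference genes. Scaled by total counts or reference genes, the median of all genes at day 12 stood at 0.21 or 0.23 and the lower share of calls at 35.9% or 33.5%, against 55.6% with TMM, and between the times at 27.3% or 23.4% against 44.7%. The replicate block left the ratio's differences at -1.03 and 1.19 (exact permutation p = 0.0625, the smallest such a block allows), and the larger library series gave -1.18 and 1.31 (adjusted exact permutation p = 0.0857). The fit of the smaller library series was added after the data were seen, and in it 17 called values of other named genes lost their call and 1 gained one. The block changed no call among the 8 RNAs, and the numbers do not pair the libraries. Snhg8 and Dleu2 are not tested at 10 CPM or more. RNA selection, strand and the Neat1 form counted limit levels, and small RNAs were too rare here to compare.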
